A study of Mus musculus with 15 samples.

Results

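The Schwann cell transcription factors described here are 10 genes: Egr2, Sox10, Pou3f1, Pou3f2, Nab1, Nab2, Sox2, Jun, Zeb2 and Id2. They were taken by symbol from the deposited table of normalized read counts, not by any measured value. The table lists 18536 genes, all 10 of these among them, and all 10 were among the 16723 genes tested, each of which reached 10 or more in 3 or more of the libraries.

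Schwann cells, the glia of peripheral nerves, pass from a precursor through an immature and a promyelinating state before they wrap an axon in myelin. Sox10, needed at every step, and the POU factors Pou3f1 (Oct6) and Pou3f2 (Brn2) act upstream of Egr2 (Krox20), the master regulator of the myelin genes, which works together with its cofactors Nab1 and Nab2. Sox2, Jun and Id2 are known as brakes on this program, with Jun also driving the repair state after nerve injury, and Zeb2 represses such inhibitors.

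Transcripts of the mouse auditory nerve, which carries signals from the cochlea to the brainstem, were measured by bulk RNA sequencing at 5 ages: P3 (postnatal day 3), P7, P14, P21 and adult. There were 3 libraries per age, each from the nerve of both cochleae of 1 mouse, so the p-values rest on the spread between mice. The strain, genotype and sex of the mice and the age of the adults were not given in the sources used here. Titles of the adult libraries begin with CTRL and those of the others with their age. That difference in label cannot be told apart from adult age. Values are read counts divided by 1 size factor per library, called normalized counts below, and libraries are listed in the order of their replicate numbers (1 to 3, and 4 to 6 at P7).

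Between 35250155 and 42258738 reads per library were recovered from the deposited values, and 3 reads, taken as the floor of detection, equalled 2.53 to 3.65 normalized counts, far below any value of the 10 genes. Replicates of an age correlated with each other across genes at r between 0.970 and 0.992. For the label of nerve, 7 of 7 spiral ganglion neuron markers were above the floor at every age, and their summed normalized count was 25723 to 41368 at P3, 39172 to 46226 at P7, 170605 to 181931 at P14, 168486 to 190928 at P21 and 225549 to 248236 in adults. The dissections also held other cells: the 8 markers of cochlear epithelium and supporting cells summed to 29453 to 40241 at P14 and to 183284 to 290643 at P7, and the 6 markers of fibroblasts and bone summed to 49828 to 57753 in adults and to 496548 to 771668 at P3. Most of the epithelial sum at P7 came from 1 gene, Tectb, which averaged 167960 at P7 and 2201 at P14. In bulk tissue, fewer cells of a type and less RNA per cell cannot be told apart. Adult replicate 3, P21 replicates 1 and 2 and P14 replicate 1 had high Xist and low Y-linked Eif2s3y, 4 libraries of the female pattern in all, so a sex difference cannot be fully told apart from age in comparisons with those ages.

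Promoter sequences are shown for 4 of the genes, the central regulator Egr2, both of its cofactors, and Jun, because their transcripts moved differently over the same ages. Each is the 250 bases before the RefSeq transcription start on GRCm38.p6 (mm10), written 5′ to 3′ on the strand of the gene. The stretches are chr10:67537619-67537868 (+) for Egr2, chr1:52500449-52500698 (-) for Nab1, chr10:127666704-127666953 (-) for Nab2 and chr4:95052223-95052472 (-) for Jun. Capitals mark matches to the motifs described after them.
Egr2: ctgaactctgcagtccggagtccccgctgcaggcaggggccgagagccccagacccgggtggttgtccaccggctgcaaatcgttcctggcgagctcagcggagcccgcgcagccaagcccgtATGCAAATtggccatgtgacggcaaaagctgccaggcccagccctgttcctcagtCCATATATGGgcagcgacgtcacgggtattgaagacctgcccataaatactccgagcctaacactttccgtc
Nab1: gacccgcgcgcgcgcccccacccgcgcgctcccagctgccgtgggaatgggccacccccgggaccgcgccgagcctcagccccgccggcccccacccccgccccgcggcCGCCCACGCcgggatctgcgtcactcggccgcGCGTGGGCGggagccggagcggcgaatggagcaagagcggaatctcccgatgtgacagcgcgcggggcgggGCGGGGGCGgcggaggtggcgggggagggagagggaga
Nab2: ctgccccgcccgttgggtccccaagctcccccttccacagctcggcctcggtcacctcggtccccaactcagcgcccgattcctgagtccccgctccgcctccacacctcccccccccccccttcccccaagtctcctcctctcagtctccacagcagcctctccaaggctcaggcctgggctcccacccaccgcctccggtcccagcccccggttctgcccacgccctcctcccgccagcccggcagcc
Jun: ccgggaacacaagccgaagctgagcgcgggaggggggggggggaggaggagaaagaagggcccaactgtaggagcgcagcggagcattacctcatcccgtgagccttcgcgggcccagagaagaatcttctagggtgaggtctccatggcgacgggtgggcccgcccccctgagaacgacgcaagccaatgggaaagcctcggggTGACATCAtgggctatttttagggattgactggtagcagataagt
RefSeq promoters were found for 8 of the 10 genes, and 7 motifs were searched on both strands. The octamer bound by POU factors, ATGCAAAT, stood 127 to 120 bases before the start of Egr2 and in no other of the 8, against 1.601% of 32851 promoters of the same length. A CArG box, the motif of serum response factor, lay 72 to 63 bases before the Egr2 start (1.467% of promoters hold 1). The Nab1 promoter held 3 matches to the EGR motif GCGNGGGCG, against 4.697% of promoters with any, and the Nab2 promoter held none. The Jun promoter held TGACATCA, bound by dimers of JUN and ATF proteins, 45 to 38 bases before the start (2.928% of promoters). The Sox2 promoter held the SOX motif ACAAAG (16.46% of promoters), and neither TGANTCA of AP-1 (6.749%) nor CACCTG of ZEB proteins (17.22%) occurred in the 8. These matches describe letters in the windows searched and do not show binding.

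Over the 5 ages, 9 of the 10 genes differed between ages (limma F test, adjusted p under 0.05), as did 85.4% of all genes tested. The largest ratio between the highest and the lowest age mean was 5.56, for Id2, and the smallest 1.24, for Nab1. Pou3f1 was the gene not called (adjusted p = 0.122, and 0.0459 without P7 replicate 5). The 10 genes followed no common course: Id2, Sox2 and Zeb2 had their highest mean at P7, Egr2, Sox10, Pou3f1 and Nab2 at P14, and Jun, Pou3f2 and Nab1 in adults.

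**Figure D1:**
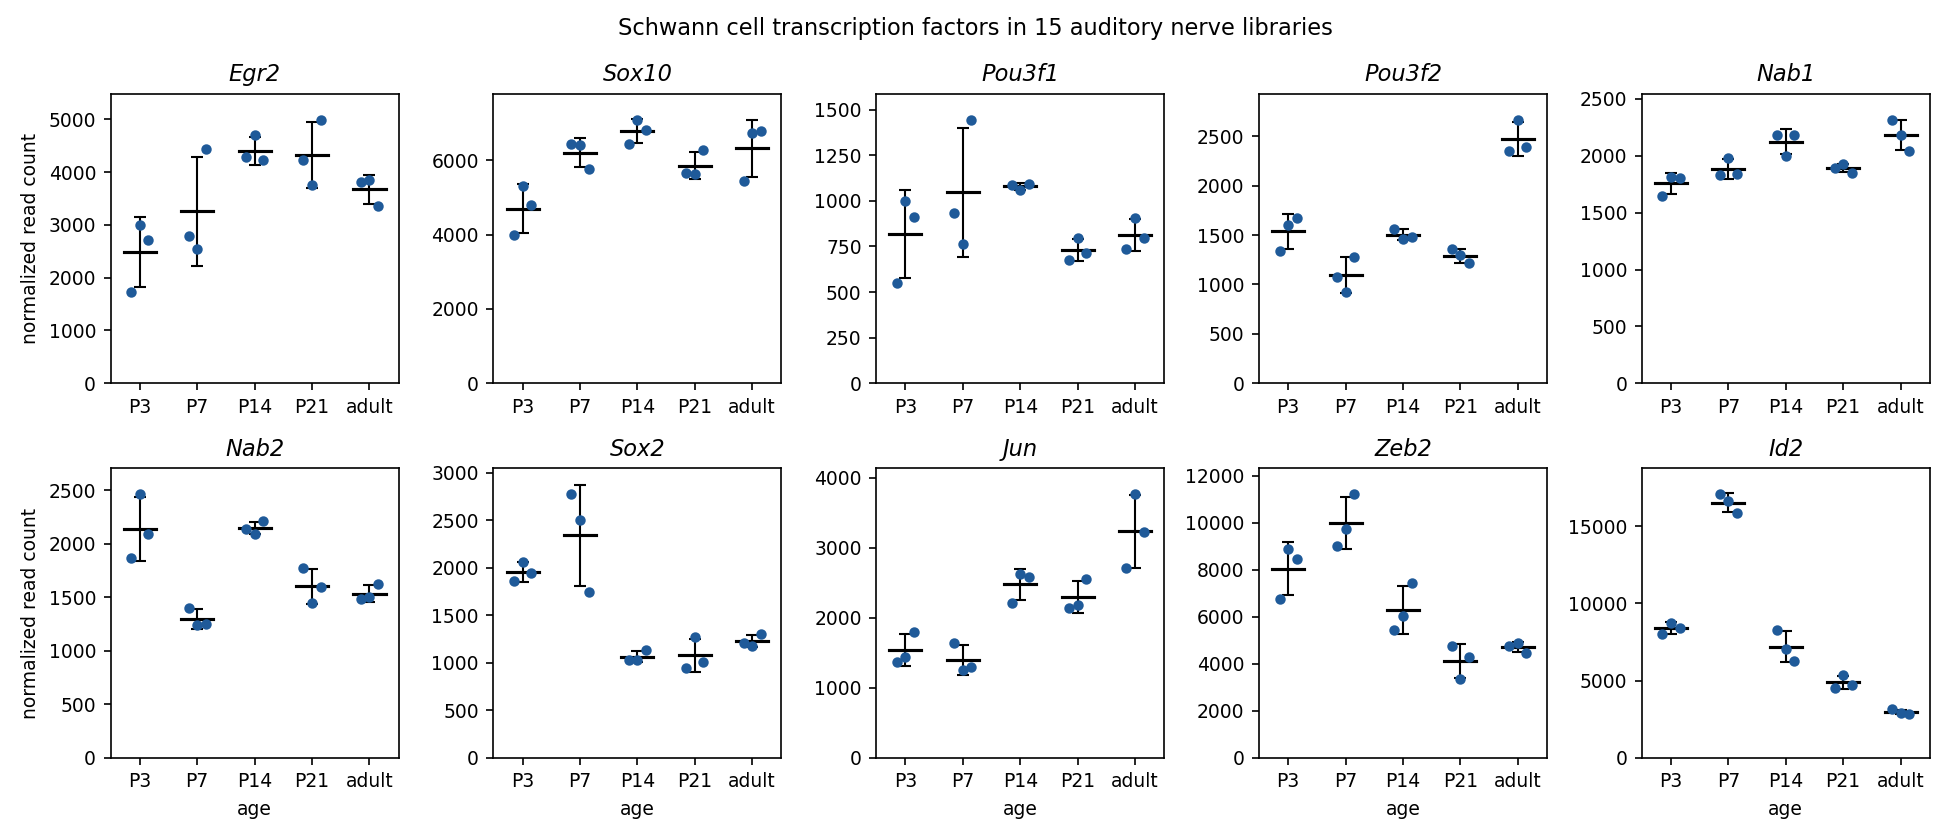
Normalized read counts (vertical axis, from 0) of the 10 genes by age (horizontal axis); points are single libraries, 3 per age, the bar is the mean and the whiskers are 1 SD. Id2 reaches 17064 at P7 and lies between 2860 and 3137 in adults, and Jun reaches 3764 in adults.

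Set by comparison, 4 of the 10 regulators were called at P7 against P3 (Sox10 and Id2 higher, Pou3f2 and Nab2 lower), as were 28.1% of all genes tested, 15.4% higher and 12.8% lower. At P14 against P7, 6 were called (Pou3f2, Nab2 and Jun higher, Sox2, Zeb2 and Id2 lower), against 48.1% of all genes, 24.3% higher and 23.8% lower. At P21 against P14 the count was 3, all lower (Nab2, Zeb2 and Id2), against 9.29% in either direction, 3.29% higher and 6.0% lower. In adults against P21, 4 were called (Pou3f2, Nab1 and Jun higher, Id2 lower), against 49.4%, of which 25.4% higher and 24.1% lower. In adults against P3, 9 were called (5 higher, 4 lower, all but Pou3f1), against 68.7%, with 34.4% higher and 34.3% lower. The 3 at P21 against P14 became 1 without P14 replicate 3 and 0 with only both ages in the fit. The median log2 fold changes of the 10 genes in these comparisons were 0.28, 0.15, -0.22, 0.18 and 0.17, against -0.02, -0.02, 0.00, 0.00 and -0.01 over all genes tested. The comparisons share libraries of an age, and nothing particular to the 10 genes is read from these counts.

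**Figure D2:**
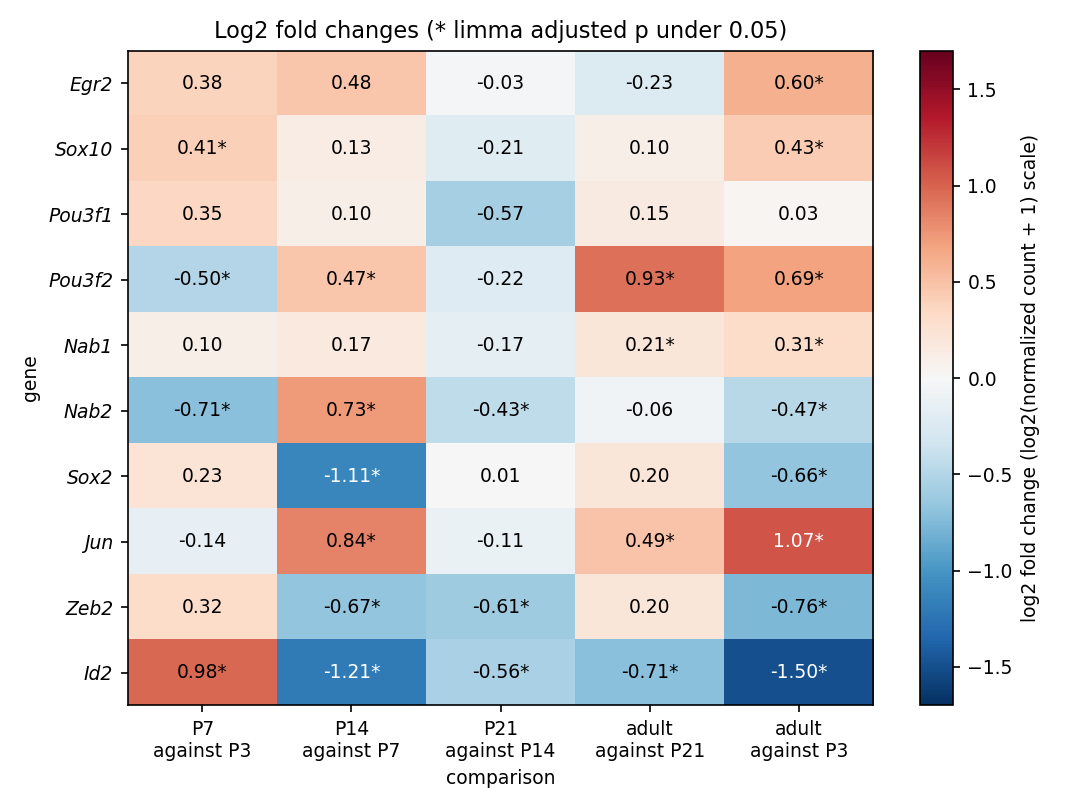
Log2 fold changes (colour and printed value, on the scale of log2(normalized count + 1)) of the 10 genes (rows) in 5 comparisons of ages (columns, later age over earlier age); an asterisk marks a limma adjusted p under 0.05. Nab2 is at -0.71 in P7 against P3 and at 0.73 in P14 against P7.

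With the ages of each gene ordered by mean, neighbours in that order were not told apart at any step for Egr2, Pou3f1 and Nab1. For Pou3f2 the adult level stood apart from P3, the next below it. A step lay between P3 and adults for Sox2, between P21 and P3 for Sox10 (not under every alternative, as given with that gene), and between P14 and adults for Zeb2. Jun had steps between adults and P14 and between P21 and P3, and Nab2 between P3 and P21 and between adults and P7. The Id2 order was P7, P3, P14, P21 and adult, with P3 and P14 as the only neighbours not told apart.

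Compared per kilobase of the principal transcript, which allows levels to be set against each other, Id2 was the most abundant of the 10 from P3 to P21, with a mean level of 8391 normalized counts per kb at P7. In adults Sox10 stood first at 2272 per kb, ahead of Id2 at 1510 and Egr2 at 1239. Pou3f1 and Pou3f2 were the lowest 2 at every age, at 211 and 442 per kb in adults.

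Sox10, the SRY-box factor that marks the whole Schwann lineage (chromosome 15, 79154913 to 79164490, minus strand), rose in the first week and was not told apart between neighbouring ages after it. Its normalized count was 3997, 5307 and 4794 at P3, 6442, 6412 and 5753 at P7, 6446, 7084 and 6798 at P14, 5650, 5636 and 6270 at P21, and 5427, 6735 and 6786 in adults. Every P7 library was above every P3 library, P7, P21 and adult libraries overlapped, and the P14 libraries lay narrowly above those of P7 and P21. Sox10 was higher at P7 than at P3 by 0.41 ± 0.11 on the log2 scale (SE, a 1.33-fold difference, adjusted p = 0.0139, limma, n = 3 per age) and in adults than at P3 by 0.43 ± 0.11 (adjusted p = 0.00316), while P14, adult, P7 and P21, in order of their means, were not told apart from the next. Without P3 replicate 1 and without P7 replicate 4 or 5 the adjusted p for P7 against P3 was 0.0551, 0.0539 and 0.0534, and quantile normalization left adult against P3 at 0.13 (adjusted p = 0.249). P21 against P3 gave 0.32 (adjusted p = 0.0183), a call lost without P3 replicate 1 (0.21, adjusted p = 0.0942), without P21 replicate 3 (0.0659), under quantile normalization (0.0813) and with only both ages in the fit (0.0598). Sox10 is also made by oligodendrocytes and melanocytes: of 8 oligodendrocyte markers 5 were higher at P7 than at P3, against 15.4% of all genes, and the 6 melanocyte markers summed to 300.2 to 4291 at P7 and to 752 to 9871 at P3. Of the 8 cochlear epithelium markers, 3 were higher at P7 than at P3. Within ages, deviations of Sox10 correlated with those of the oligodendrocyte, melanocyte and cochlear epithelium markers at r = -0.12, -0.21 and 0.37. Without P3 replicate 1 and P7 replicate 6, r was -0.16, 0.21 and 0.38. The libraries share their normalization, and the part of these cell types in the rise of Sox10 was not tested.

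Egr2 (chromosome 10, 67537869 to 67542188, plus strand), the zinc finger factor required for peripheral myelination, climbed without a step large enough to be called between neighbouring ages. It stood at 1734, 2998 and 2718 at P3, at 2787, 2542 and 4437 at P7, at 4276, 4694 and 4225 at P14, at 4233, 3754 and 4989 at P21, and at 3807, 3857 and 3359 in adults. P3 replicate 1 was low and P7 replicate 6 high, and every library from P14 on exceeded every P3 library. Egr2 was higher at P14 than at P3 by 0.86 ± 0.21 (log2 ± SE, 1.82-fold, adjusted p = 0.00339), at P21 than at P3 by 0.83 ± 0.21 (adjusted p = 0.00376) and in adults than at P3 by 0.60 ± 0.21 (adjusted p = 0.0221). P14 against P7 gave 0.48 ± 0.21 (adjusted p = 0.0801), and was called without P7 replicate 6 (0.72, adjusted p = 0.00893) and without P3 replicate 1 (adjusted p = 0.0376). The call for adult against P3 was lost without P3 replicate 1 (0.36, adjusted p = 0.117), without adult replicate 1 or 2 (adjusted p = 0.0563 and 0.0616) and under quantile normalization (0.43, adjusted p = 0.0817). In the authors' deposited table, Egr2 had a fold of 1.31 for P7 against P3 and of 1.35 for P14 against P7, with unadjusted p-values of 0.0739 and 0.047.

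Many of the myelin genes that Egr2 and Sox10 are known to activate rose up to P14, and fewer of them fell after it. Of 14 such genes, 12 were higher at P7 than at P3, as were 15.4% of all genes tested, with a median log2 fold change of 1.71, against -0.02 over all genes tested, and 7 were higher at P14 than at P7, as were 24.3% of all genes (median 0.64, against -0.02). Then 5 of 14 were lower at P21 than at P14, as were 6.0% of all genes (median -0.63, against 0.00), and 6 were lower in adults than at P21, as were 24.1% (median -0.42, against 0.00). Pmp22, a protein of compact peripheral myelin, fell to 58879, 60549 and 59083 in adults, against 270417, 232622 and 221744 at P14 (log2 fold change -2.02 ± 0.15 SE, adjusted p = 9.04e-07). That was more than the median of the 14 genes in adults against P14, -0.82, against 0.01 over all genes tested. Over the same ages Egr2 differed by -0.26 ± 0.21 (95% interval -0.72 to 0.20, adjusted p = 0.329, and 0.0248 with only both ages in the fit). The difference between the genes' changes was not tested. Pmp22 averaged 59504 ± 911 in adults and 137125 ± 19559 at P21 (SD, n = 3 each; log2 fold change -1.20 ± 0.15 SE, adjusted p = 0.000134). Several of the 14, Mbp among them, are also made by oligodendrocytes, whose 8 markers summed to 1404 to 3299 at P3, 3447 to 14775 at P7 and 2445 to 28752 at P14, with Opalin at or under the floor in all P3 libraries. Their part in the list's course was not tested.

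Both POU factors are induced before Egr2 in promyelinating Schwann cells. Here the highest age mean of Pou3f1 was at P14 and that of Pou3f2 in adults, and the difference between their courses was not tested. Within ages their deviations correlated at r = 0.89 (0.79 without P3 replicate 1 and P7 replicate 6), over 15 libraries that share their normalization. Pou3f1 (chromosome 4, 124657646 to 124660655, plus strand) stood at 547, 999 and 910 at P3, at 932, 763 and 1443 at P7, at 1089, 1058 and 1090 at P14, at 676, 795 and 715 at P21, and at 735, 906 and 796 in adults. The P14 libraries lay close together, between 1058 and 1090, whereas P3 and P7 spread widely, with the same replicates low and high as for Egr2. No neighbouring ages were told apart. The P21 libraries were all below the P14 libraries (log2 fold change -0.57 ± 0.23 SE), yet the adjusted p was 0.134. Exons of Pou3f1 share 330 bases with the antisense Gm2164.

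Pou3f2 (chromosome 4, 22482095 to 22488366, minus strand) dipped at P7 and was highest in adults. Its normalized count was 1337, 1605 and 1671 at P3, 1075, 920 and 1282 at P7, 1565, 1463 and 1479 at P14, 1360, 1296 and 1214 at P21, and 2346, 2665 and 2390 in adults. The lowest adult library exceeded every library of the other ages, and every P7 library was below every P3 library. Pou3f2 fell by 0.50 ± 0.11 at P7 relative to P3 (log2 ± SE, adjusted p = 0.00609), rose by 0.47 ± 0.11 at P14 relative to P7 (adjusted p = 0.00383) and rose by 0.93 ± 0.11 in adults relative to P21 (1.91-fold, adjusted p = 0.000117). Pou3f2 is also made by neurons outside the Schwann lineage, and 3 of 7 neuron markers were higher in adults than at P21, against 25.4% of all genes tested. Within ages, deviations of Pou3f2 correlated with those of the neuron markers at r = 0.17 and of the myelinating Schwann cell markers at 0.70. Without P3 replicate 1 and P7 replicate 6, r was 0.19 and 0.46. The libraries share their normalization, and the part of neurons in the rise of Pou3f2 was not tested. Within a library, the ratio of Pou3f1 to Pou3f2 averaged 0.53 ± 0.11 at P3, 0.94 ± 0.16 at P7, 0.72 ± 0.02 at P14, 0.57 ± 0.06 at P21 and 0.33 ± 0.01 in adults (SD, n = 3 each).

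Nab1 and Nab2 bind EGR proteins and, in mice, are needed together for Schwann cell myelination. Their transcripts differed in how much they varied. Nab1 (chromosome 1, 52455849 to 52500448, minus strand) stood at 1648, 1817 and 1805 at P3, at 1833, 1981 and 1837 at P7, at 2187, 1996 and 2186 at P14, at 1893, 1927 and 1853 at P21, and at 2316, 2186 and 2045 in adults. Adults and P3 did not overlap, and Nab1 was higher in adults than at P3 by 0.31 ± 0.07 (log2 ± SE, 1.24-fold, adjusted p = 0.00101). It was also higher in adults than at P21 by 0.21 ± 0.07 (adjusted p = 0.023), a call lost without P21 replicate 3 (adjusted p = 0.0548), adult replicate 1 (0.0971) or adult replicate 2 (0.0576), under quantile normalization (0.174), with only both ages in the fit (0.0918) and without the 4 libraries of the female pattern (0.0639). P14 against P7 gave 0.17 ± 0.07 (adjusted p = 0.0501), and was called when any 1 of 6 libraries was left out: P3 replicate 1, P7 replicate 5, P14 replicate 2, P21 replicate 2 or adult replicate 1 or 3 (adjusted p down to 0.0352). It was also called under TMM scaling (adjusted p = 0.0364), with a filter of 50 (0.0453), by DESeq2 (0.0313) and by edgeR (0.0368).

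Nab2 (chromosome 10, 127660918 to 127666703, minus strand) had a trough at P7 on both sides of which it was high. It stood at 1869, 2463 and 2091 at P3, at 1405, 1240 and 1248 at P7, at 2143, 2093 and 2211 at P14, at 1772, 1445 and 1598 at P21, and at 1483, 1502 and 1622 in adults. P7 overlapped neither P3 nor P14, nor did P21 overlap P14. Nab2 fell by 0.71 ± 0.10 at P7 relative to P3 (log2 ± SE, adjusted p = 0.00029) and rose by 0.73 ± 0.10 at P14 relative to P7 (1.66-fold, adjusted p = 5.3e-05). It fell by 0.43 ± 0.10 at P21 relative to P14 (adjusted p = 0.0192), a call lost without P14 replicate 3 (adjusted p = 0.0767), with only both ages in the fit (0.118) and without the 4 libraries of the female pattern (0.122). The ratio of Nab2 to Nab1 averaged 1.22 ± 0.12 at P3, 0.69 ± 0.07 at P7, 1.01 ± 0.03 at P14, 0.85 ± 0.09 at P21 and 0.71 ± 0.08 in adults (SD, n = 3 each). In GENCODE M21, Nab2 exons share 1050 bases with the antisense Gm16229, 151 with Nemp1 and 40 with Stat6, all on the opposite strand. Whether reads were counted by strand was not given in the sources used here, so for Nab2, Pou3f1, Jun and Zeb2 reads of an antisense partner cannot be told apart. Stat6 was higher at P14 than at P7 by 0.37 ± 0.09, and Nemp1 averaged 637 ± 51 at P14 and 682 ± 87 at P7 (SD, n = 3 each).

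Sox2, an SRY-box factor that holds Schwann cells immature in mice, also marks supporting cells of the organ of Corti and satellite glia. Its normalized count (chromosome 3, 34649995 to 34652460, plus strand) was 1858, 2066 and 1945 at P3, 2774, 2509 and 1742 at P7, 1032, 1033 and 1132 at P14, 948, 1277 and 1011 at P21, and 1214, 1182 and 1305 in adults. The libraries formed a higher set at P3 and P7 and a lower set from P14 on, with no overlap between the sets. Sox2 fell by 1.11 ± 0.15 at P14 relative to P7 (log2 ± SE, 2.16-fold lower, adjusted p = 4.08e-05) and was lower in adults than at P3 (log2 fold change -0.66 ± 0.15 SE, adjusted p = 0.00126). P7 against P3 gave 0.23 ± 0.15 (adjusted p = 0.258), and was called without P7 replicate 6 (0.43, adjusted p = 0.0194).

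Of 8 markers of the cochlear epithelium, 5 were lower at P14 than at P7, against 23.8% of all genes, and Tectb, a protein of the tectorial membrane, fell to 2431, 2320 and 1852 at P14, against 178796, 207225 and 117858 at P7. Tectb was lowest among the P7 libraries in replicate 6, as Sox2 was. In adults against P21, 4 of the 8 were lower, against 24.1% of all genes, with Oc90 at or under the floor in all adult libraries, while Sox2 was not called (0.20 ± 0.15, adjusted p = 0.267). Within ages, deviations of Sox2 correlated with those of this list at r = 0.20 (-0.04 without P3 replicate 1 and P7 replicate 6), with those of the oligodendrocyte markers at 0.58 and with those of the Notch and Id list at 0.76, over 15 libraries that share their normalization. Of 6 markers of nonmyelinating Schwann cells and satellite glia, 3 were higher (Ngfr, Ncam1 and Scn7a) and 1, Fabp7, lower at P14 than at P7. The shares of all genes were 24.3% and 23.8%. Fabp7 averaged 1830 at P14 and 8964 at P7 (adjusted p = 0.00041, limma). Within ages, deviations of Sox2 correlated with those of these 6 markers at r = 0.32. For Fabp7, Tectb and Oc90 alone, r was 0.59, 0.52 and 0.24 (0.62, 0.30 and -0.11 without P3 replicate 1 and P7 replicate 6). The part of epithelial cells or satellite glia in the course of Sox2 was not tested. The long noncoding Sox2ot, which spans Sox2 on the same strand and shares 0 exon bases with it, moved the other way: it was higher at P14 than at P7 (312 ± 111 and 178 ± 20, SD, n = 3 each, adjusted p = 0.00769).

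Id2, a helix-loop-helix protein without a DNA-binding domain that is known to oppose myelin gene expression, changed most of the 10. It stood at 8022, 8762 and 8434 at P3 (chromosome 12, 25093799 to 25096092, minus strand), at 17064, 16658 and 15846 at P7, at 8298, 7081 and 6252 at P14, at 4535, 5364 and 4749 at P21, and at 3137, 2925 and 2860 in adults. P7 stood far above every other age, and from P14 on each age lay below the one before with no overlap. Id2 rose by 0.98 ± 0.09 at P7 relative to P3 (log2 ± SE, 1.97-fold, adjusted p = 1.96e-05). It fell by 1.21 ± 0.09 at P14 relative to P7 (adjusted p = 4.13e-07), by 0.56 ± 0.09 at P21 relative to P14 (adjusted p = 0.00376) and by 0.71 ± 0.09 in adults relative to P21 (adjusted p = 0.000173). In adults it was 2.83-fold lower than at P3 (adjusted p = 1.07e-08). With only both ages in the fit, P21 against P14 was not called (adjusted p = 0.114). Of 6 fibroblast and bone markers, 3 were higher and 2 lower at P7 than at P3, against 15.4% and 12.8% of all genes. In adults against P3, 6 of 6 were lower, against 34.3%. Within ages, deviations of Id2 correlated with theirs at r = -0.16. With other regulators of the Schwann lineage r was -0.73, and with nonmyelinating Schwann and satellite glia markers -0.62. The part of other cell types in the course of Id2 was not tested.

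Other Id genes, Notch pathway genes and the endothelin receptor Ednrb formed a list of 12 genes linked to immature or proliferating Schwann cells. Of these 12, 8 were lower and 1 higher in adults than at P3, against 34.3% and 34.4% of all genes, with a median log2 fold change of -0.93, against -0.01 over all genes tested. Ednrb averaged 1815 in adults and 15267 at P3 (adjusted p = 5.62e-07). Jag1, a Notch ligand, averaged 1153 in adults and 3404 at P3 (adjusted p = 1.79e-07), and Id1 averaged 1305 in adults and 2972 at P3 (adjusted p = 2.26e-06). Hey2, a Notch target, was the exception: it was higher in adults, at 2313, than at P3, at 1358 (adjusted p = 0.00015). In the same comparison, 6 of 8 cochlear epithelium markers were lower and 2 higher, and 5 of 6 melanocyte markers were lower and 1 higher. The part of these cells in the course of the 12 genes was not tested. Between P7 and P3, where Id2 rose, 2 of the 12 were lower and 1, Id4, was higher (1826 at P7 and 1102 at P3), against 12.8% and 15.4% of all genes. Id1 and Id3 are chosen for mention here after their values were seen: their log2 fold changes at P7 against P3 were 0.29 and 0.14, and neither was called.

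Zeb2 (chromosome 2, 44983512 to 45117442, minus strand), a zinc finger and homeodomain repressor that Schwann cells need to myelinate, is also made by many other cells, macrophages and neural crest derivatives among them. It stood at 6755, 8897 and 8443 at P3, at 9024, 9730 and 11196 at P7, at 5428, 6016 and 7411 at P14, at 4756, 3346 and 4273 at P21, and at 4742, 4889 and 4461 in adults. All P3 and P7 libraries but P3 replicate 1 were above all later ones. Zeb2 fell by 0.67 ± 0.15 at P14 relative to P7 (log2 ± SE, 1.60-fold lower, adjusted p = 0.00198) and by 0.61 ± 0.15 at P21 relative to P14 (adjusted p = 0.0211). That second call was lost without P14 replicate 3 (adjusted p = 0.101), with only both ages in the fit (0.157) and without the 4 libraries of the female pattern (0.0819). In adults Zeb2 was lower than at P3 (log2 fold change -0.76 ± 0.15 SE, adjusted p = 0.000401). The 6 macrophage markers fell over the same span: they summed to between 4292 and 5514 in adults and to between 16567 and 23657 at P3, with 6 of 6 lower, against 34.3% of all genes, and none at the floor. All 6 fibroblast and bone markers were also lower in adults than at P3 (median log2 fold change -4.68, against -2.01 for macrophage markers). At P7 against P3, 5 of 6 macrophage markers were lower, against 12.8% of all genes, and Zeb2 gave 0.32 (limma adjusted p = 0.122). Within ages, deviations of Zeb2 correlated with those of macrophage, fibroblast and bone, and myelinating Schwann cell markers at r = 0.45, 0.64 and 0.81. The libraries share their normalization. The part of these cells in the fall of Zeb2 was not tested. The antisense Zeb2os, which shares 653 exon bases with Zeb2, was also lower at P14 than at P7 (log2 fold change -0.89 ± 0.16 SE, adjusted p = 0.000511).

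Jun (chromosome 4, 95049036 to 95052222, minus strand), an AP-1 component, was higher at the later ages. It stood at 1371, 1437 and 1796 at P3, at 1637, 1249 and 1293 at P7, at 2219, 2632 and 2582 at P14, at 2138, 2190 and 2556 at P21, and at 2719, 3764 and 3227 in adults. No library from P14 on overlapped those of P3 and P7, and the adult libraries were the highest. Jun rose by 0.84 ± 0.14 at P14 relative to P7 (log2 ± SE, 1.79-fold, adjusted p = 0.000317) and by 1.07 ± 0.14 in adults relative to P3 (2.10-fold, adjusted p = 1.53e-05). Adult against P21 gave 0.49 ± 0.14 (adjusted p = 0.0131), a call lost without adult replicate 2 (0.37, adjusted p = 0.0638) and without the 4 libraries of the female pattern (0.32, adjusted p = 0.321). At P14 against P7, 6 of 7 neuron markers were also higher, against 24.3% of all genes tested (median log2 fold change 1.69, against -0.02). Within ages the deviations of Jun correlated with theirs at r = 0.51 (0.59 without P3 replicate 1 and P7 replicate 6). They correlated with those of Sox10 at 0.60, of the Notch and Id list at 0.50 and of other regulators of the Schwann lineage at 0.49. All 15 libraries share their normalization. The part of neurons in the rise of Jun was not tested. Jun exons share 232 bases with the antisense Junos.

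Genes known to be controlled by Jun in immature and repair Schwann cells were called in both directions. Of 13, 5 were higher and 3 lower at P14 than at P7, against 24.3% and 23.8% of all genes tested, and 5 were higher and 1 lower in adults than at P21 (median log2 fold change 0.36, against 0.00 over all genes tested, of which 25.4% were higher and 24.1% lower). Ngfr, the low-affinity neurotrophin receptor, stood at 7998, 8187 and 7972 in adults, against 4354, 2539 and 4925 at P21 (log2 fold change 1.09 ± 0.21 SE, adjusted p = 0.00128). L1cam, an adhesion molecule of nonmyelinating Schwann cells and of axons, averaged 5266 ± 428 in adults and 2059 ± 498 at P21 (SD, n = 3 each; adjusted p = 0.000134). Gap43, a growth-associated protein of axons and immature Schwann cells, averaged 136 in adults and 1785 at P3 (log2 fold change -3.93 ± 0.41 SE, adjusted p = 1.49e-06). L1cam and Ncam1 of this list are also made by neurons, whose 7 markers, a list that holds neither, summed to 225549 to 248236 in adults and to 168486 to 190928 at P21. Their part was not tested.

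Jun is also an immediate early gene, one of a class induced quickly by many stimuli. Of 10 listed genes of that class, 2 were higher and 2 lower at P14 than at P7, where Jun rose, against 24.3% and 23.8% of all genes. The higher ones were Dusp1 (log2 fold change 1.11, adjusted p = 0.00125) and Zfp36 (0.86, adjusted p = 0.00128). In adults against P21, 7 were lower and 1, Atf3, higher (median log2 fold change -0.92, against 0.00), against 24.1% and 25.4% of all genes. The difference from the change of Jun was not tested. Nr4a1 fell to 655, 539 and 519 in adults, against 1559, 1592 and 1722 at P21 (adjusted p = 7.11e-05). The 10 genes summed to 4435 to 5754 in adults and to 8931 to 11655 at P21.

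**Figure D3:**
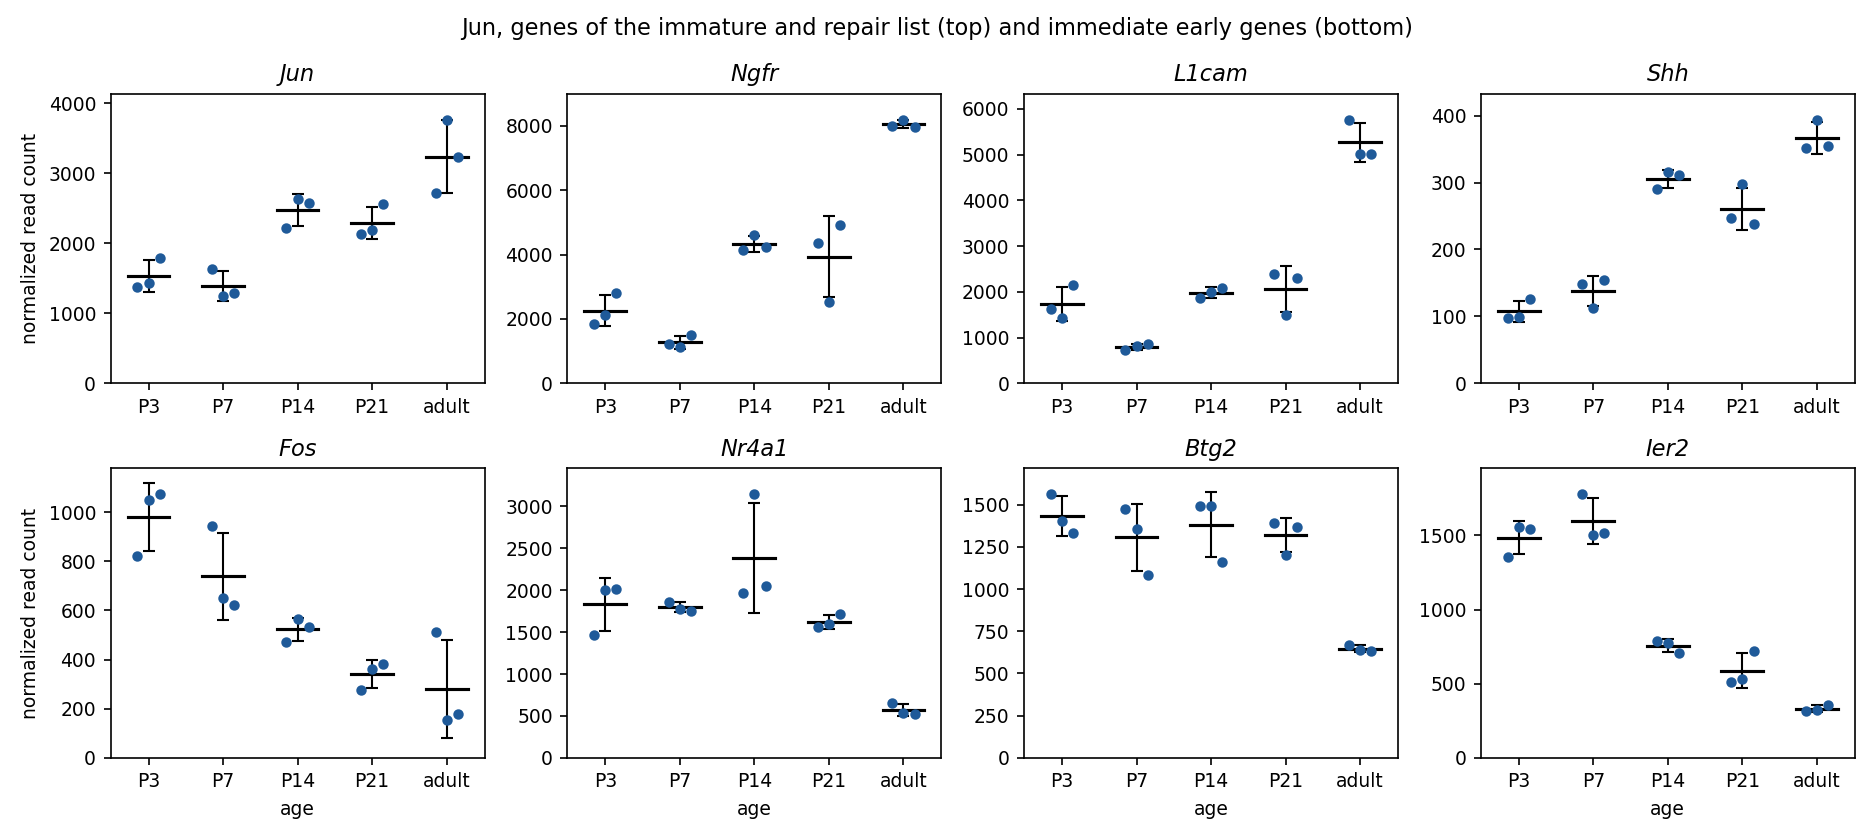
Normalized read counts (vertical axes, from 0) by age of Jun, 3 genes of the immature and repair list (Ngfr, L1cam, Shh) and 4 immediate early genes (Fos, Nr4a1, Btg2, Ier2); points are libraries, 3 per age, with mean and SD. The panels were picked after the values were seen. The 3 genes of the immature and repair list that were lower at P14 than at P7, Gap43 among them, are not shown. Nor are Dusp1 and Zfp36, the immediate early genes that were higher at P14 than at P7. Jun and Ngfr are highest in adults, where Nr4a1 lies between 519 and 655.

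Ratios between activators and inhibitors within a library, in either order, do not depend on the size factor. Egr2 over Sox2 averaged 1.26 ± 0.28 at P3, 1.52 ± 0.89 at P7, 4.14 ± 0.41 at P14, 4.11 ± 1.04 at P21 and 2.99 ± 0.37 in adults (SD, n = 3 each). The lowest ratio from P14 on, 2.57, was just above the highest before it, 2.55 in P7 replicate 6. Jun over Sox10 averaged 0.33 ± 0.05, 0.22 ± 0.03, 0.37 ± 0.02, 0.39 ± 0.01 and 0.51 ± 0.04 over the 5 ages from P3 to adult, and the adult libraries lay above all others. Egr2 over Jun averaged 1.62 ± 0.42 at P3, 2.39 ± 0.92 at P7, 1.78 ± 0.15 at P14, 1.88 ± 0.15 at P21 and 1.16 ± 0.21 in adults, where 2 of the 3 libraries were below every library of the other ages. No test was run on the ratios.

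**Figure D4:**
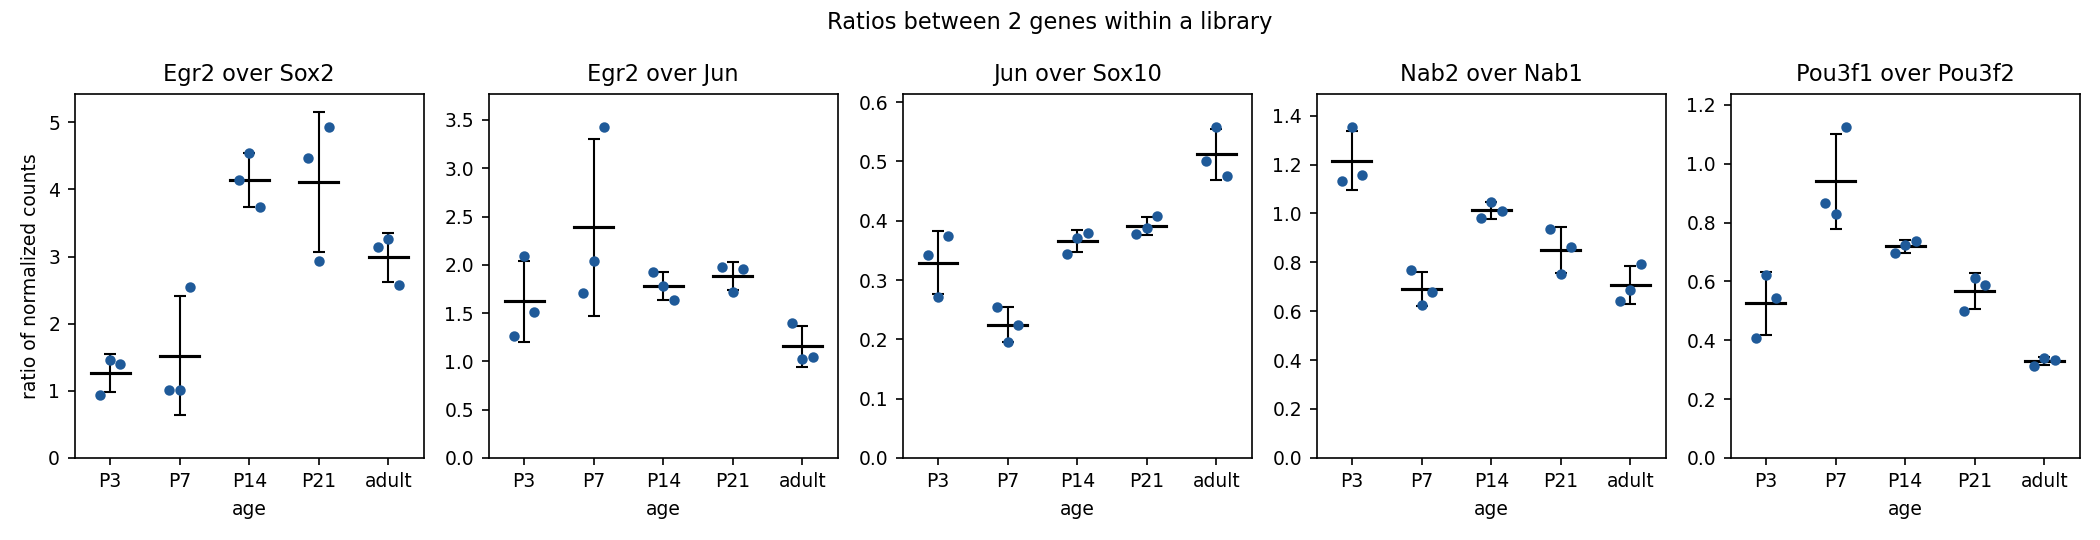
Ratios of normalized counts between pairs of the 10 genes within each library (vertical axes, from 0) by age; points are libraries, 3 per age, with mean and SD. Egr2 over Sox2 averages 1.52 at P7 and 4.14 at P14, and Nab2 over Nab1 averages 0.69 at P7.

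Within an age, single libraries deviated together. The deviations of Egr2 from its age means (log2, 15 libraries) correlated with those of Cldn19, a tight junction protein of myelinating Schwann cells, at r = 0.98, of Pou3f1 at r = 0.85, of the 7 markers of myelinating Schwann cells at r = 0.92 and of the 14 myelin genes at r = 0.64. Without P3 replicate 1 and P7 replicate 6, the farthest ones, r was 0.96, 0.67, 0.85 and 0.43. The choice of these pairs followed a look at their values, the libraries share their normalization, and the correlations are a description. In P3 replicate 1 the deviation of Egr2 was -0.48, that of Pou3f1 -0.53 and that of Cldn19 -0.54. In P7 replicate 6 these were 0.49, 0.52 and 0.54, and Sox2 deviated by -0.40. Mog and Dct were also chosen after their values were seen. Mog, a myelin protein of oligodendrocytes, stood at 1785, 2832 and 517 in the P7 libraries, lowest in replicate 6, and Dct, an enzyme of melanocytes, at 94.9, 105 and 3102, highest there. Whether the mix of cells in a dissection sets these deviations was not tested.

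**Figure D5:**
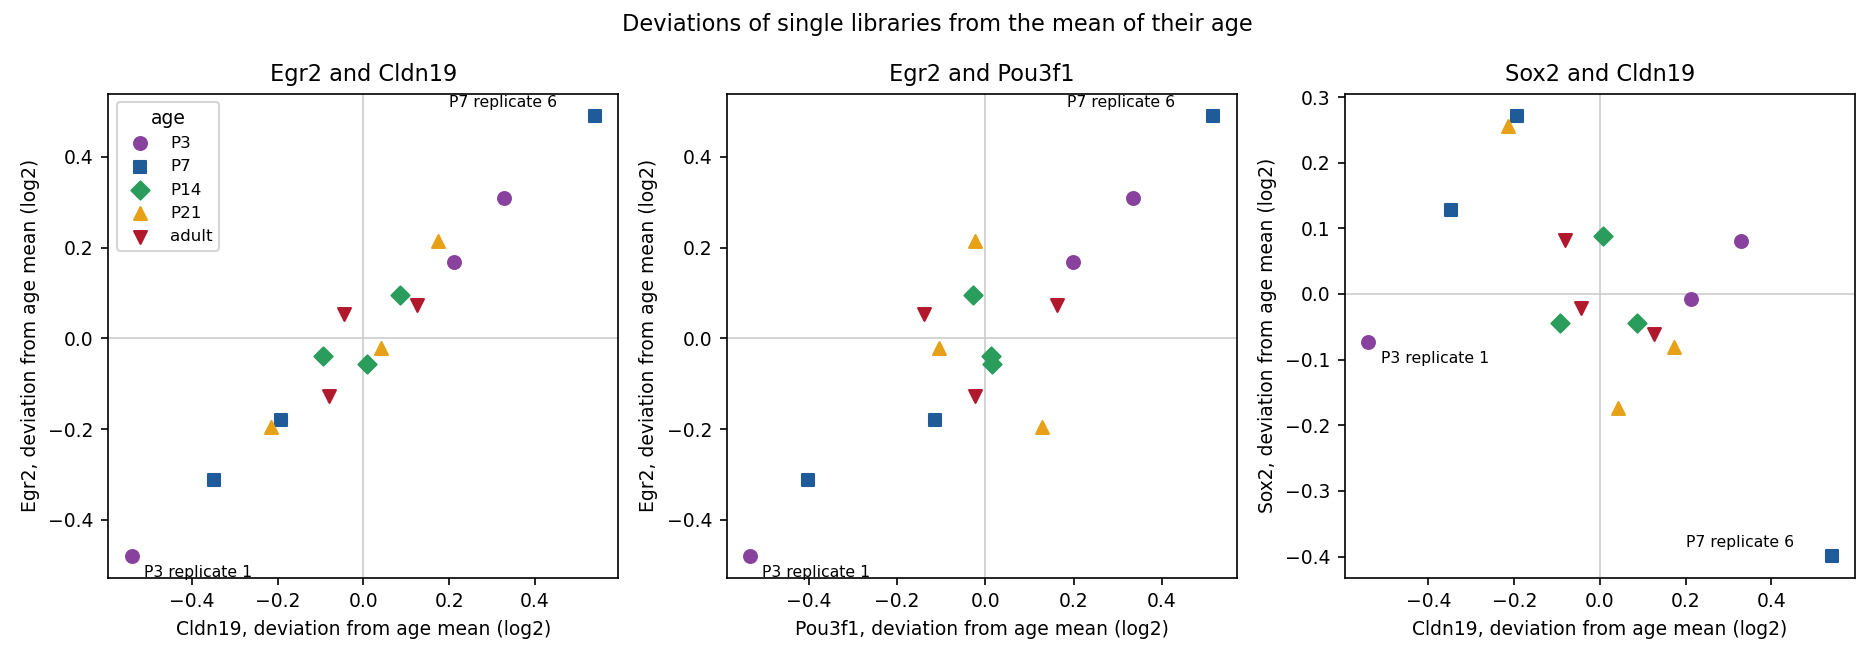
Deviations of single libraries from the mean of their age (log2 of normalized count + 1) for Egr2 against Cldn19, Egr2 against Pou3f1 and Sox2 against Cldn19; each point is 1 of 15 libraries, with symbols for the 5 ages. P3 replicate 1 lies at the lower left and P7 replicate 6 at the upper right for Egr2 against Cldn19, while P7 replicate 6 lies at the lower right for Sox2.

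The genes most alike each regulator were sought among 13193 genes by Pearson's r of log2 values over the 15 libraries, as a description. For Egr2 they were Slc36a2 (r = 0.94), an amino acid transporter, Gypc (0.90) and Carns1 (0.89), and for Sox10 Numb (0.91), Sox13 (0.88) and Sfn (0.87). For Pou3f1 they were Foxd3 (0.88), a neural crest factor, Cldn19 (0.84) and Cnppd1 (0.83), and for Pou3f2 Hdac4, Polrmt and Mtrr (each 0.94). Those of Nab1 were Rab14, Wdr44 and Arf3 (0.88 to 0.89), and those of Nab2 Josd1, Osmr and Klf6 (0.87 to 0.89). Sox2 was followed most closely by Pla2r1, Rab3b and Elp4 (0.94 to 0.95), Jun by Sec14l1, AI464131 and Coq5 (each 0.97), Zeb2 by Mapk6, Wipi1 and Epb41l2 (each 0.98), and Id2 by Arfip1, Bzw1 and Flywch2 (0.98 to 0.99). None of these was another of the 10 regulators.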

How the data were processed

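Per the labels' protocols, the nerve was microdissected, total RNA was purified (miRNeasy kit) and TruSeq libraries were sequenced. Per the submitters' processing notes, Partek, TopHat2 and DESeq2 were used, with mm10 as the build. Annotation, counting settings and use of strand were not given in the sources used here. The deposited signal is a gene's read count over the library's size factor: within 0.1 reads, 99.94% of the values above 0 came out as whole multiples of the library's step. Dividing by the step (0.843 to 1.22) recovered the reads. The floor covers counting error only, as reads without molecular identifiers need not be separate molecules. The authors' deposited p-values and the score of signed fold change were used where named as theirs.

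All 15 libraries entered 1 limma fit (3.58.1, R 4.3.3; trend, robust) on log2(value + 1), without covariates, leaving 10 residual degrees of freedom. Two-sided p-values were adjusted by Benjamini-Hochberg over all 16723 genes tested, and calls needed an adjusted p under 0.05, for each pair of ages and for all 5 jointly. Fold changes are on the log2(value + 1) scale. Levels per kb use the longest principal transcript of GENCODE M21. Coordinates are those of the deposited table.

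Up to 4 called genes per list and comparison with the smallest adjusted p were named, beside the 10 regulators, the 3 genes most alike each, overlapping genes, Pmp22, Hey2, Ngfr, Eif2s3y and Xist; some listed genes are not reported here. The regulators and lists were chosen with earlier results of these data known. Alternatives were quantile and TMM scaling, no filter or one of 50, pseudocounts of 0.1 and 10, a fit of only both ages, recovered reads in DESeq2 (1.42.0) and edgeR (4.0.16), leaving out each library in turn, the replicate number as a block, and no female-pattern libraries. A fit without P7 and without a block was added after seeing the data. The code was tested on simulated data.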

Additional observations from a re-analysis of the deposited data

How the results depend on the processing

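The 67 values of the 10 genes were recomputed 1735 times under the alternatives: 1666 kept direction and side of the threshold, 16 came to pass it, 30 no longer passed it and 23 changed sign. No sign change was of a called value, and 29 of the 38 called values were called under every alternative run. For P21 against P14, 1553 genes were called, 137 with only both ages in the fit, 2517 by DESeq2, 977 without P7 and 754 without the 4 female-pattern libraries. Of the regulators, 0 and 1 were called in the first and last of these, against 3. For adult against P21, 8266 genes were called, 5211 with only both ages in the fit and 3987 without the 4 libraries, where 2 regulators were called, against 4. The cause was not tested. With the 4 libraries left out, P21 held 1 library, assumed to vary like the others.

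Leaving out 1 library gave between 3080 (without P7 replicate 5) and 6349 genes at P7 against P3 (main 4703) and between 3 and 5 regulators, 6736 to 9171 and 6 to 8 at P14 against P7, 631 (without P14 replicate 3) to 1969 and 1 to 3 at P21 against P14, 6778 to 8514 and 2 (without adult replicate 2) to 4 in adults against P21, 10650 to 12199 and 8 to 9 in adults against P3, and 13622 to 14471 and 9 to 10 jointly.

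Values that changed sign, all uncalled log2 fold changes, were Egr2 at P21 against P14 (0.014 under quantile normalization, 0.16 without the 4 libraries), Sox10 in adults against P21 (-0.074 and -0.053), Sox10 in adults against P7 (-0.21 and -0.035) and at P21 against P7 (0.018 without the 4 libraries), Sox2 at P21 against P14 (-0.010 under TMM, -0.097 without the 4 libraries) and Pou3f1 in adults against P3 (-0.011 by DESeq2, -0.0049 by edgeR). Leaving out 1 library gave -0.10 to 0.36 for Pou3f1 at P14 against P7, -0.14 to 0.065 for Egr2 and -0.12 to 0.094 for Sox2 at P21 against P14, -0.13 to 0.014 for Nab2 in adults against P21, -0.24 to 0.20 for Pou3f1 in adults against P3, and -0.035 to 0.13 for Sox10 in adults against P7.

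The replicate numbers were shared by P3, P14, P21 and adults, and no paired analysis was possible for P7 because its libraries carry the numbers 4 to 6. Same-numbered libraries shared only a number: 5 of 18 pairs deviated together at r over 0.1, with r between -0.229 and 0.319. With the replicate block, and P7 left out, 645 genes and 1 regulator (Id2) were called at P21 against P14, with Nab2 at an adjusted p of 0.0747 and Zeb2 at 0.0685, and Nab1 in adults against P21 at 0.0625.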

Other observations

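Of 22 other regulators of the Schwann lineage, 14 were lower and 2 higher in adults than at P3, against 34.3% and 34.4% of all genes tested, with a median log2 fold change of -0.67, against -0.01 over all genes tested. In adults against P21, 5 were lower and 4 higher, against 24.1% and 25.4% of all genes tested. Nfatc4, a calcium-regulated factor that acts with Sox10 on Egr2, averaged 553 in adults and 2198 at P3 (adjusted p = 1.82e-09, limma), and Adgrg6, the receptor that starts myelination in Schwann cells, averaged 1157 in adults and 3670 at P3 (adjusted p = 1.51e-07). Wwtr1 (TAZ), a coactivator of the Hippo pathway, averaged 2925 in adults and 6021 at P3 (adjusted p = 3.04e-08). Egr3, a relative of Egr2, averaged 142 in adults and 1395 at P3 (adjusted p = 4.88e-07). The 2 that were higher in adults were Srebf1 and Srebf2, regulators of lipid and cholesterol synthesis: Srebf1 averaged 10503 in adults and 4960 at P3, and Srebf2 7677 in adults and 5042 at P3.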
